A study of Mus musculus with 60 samples.

Results

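Single organoids of Set 1, picked at passage 11, were compared with single organoids of Sets 2, 3 and 4, picked at passages 3, 3 and 4. The comparison used 35 of the 42 single organoids in the table, that is 8 of Set 1 against 27 of the earlier passages (10 of Set 2, 5 of Set 3 and 12 of Set 4), out of 60 samples in the whole series. The members were chosen by set and library: Set 1 organoids 1 to 8 and all organoids of Sets 2 to 4, without the 7 libraries that the study left out at quality control (Set 1 organoids 9 and 10, Set 2 organoid 8, Set 3 organoid 2 and Set 4 organoids 4, 8 and 10). All organoids were mouse intrahepatic cholangiocyte organoids, grown from the bile duct cells of C57BL/6N males at 3 months of age, and they were taken from suspension cultures in a low percentage of Matrigel. Each set came from the liver of 1 mouse, and no group carried a mutation or was given a drug. The animal, the culture and the passage of Set 1 therefore cannot be told apart. The organoids of a set share a culture. Unless counts were summed per set, P-values of single organoids therefore take organoids and not animals as units. In the pooled comparison the spread between Sets 2 to 4 also enters them. The spread between animals at passage 11 cannot enter them, as Set 1 is 1 animal. Bulk RNA of Sets 1, 3 and 4 at passages 4 and 11, with 2 technical replicates of each, served as another readout. There, P-values take the 3 cultures of each passage as units.

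Cholangiocytes line the bile ducts and secrete and modify bile. Placed in Matrigel with growth factors they form hollow, polarised epithelial spheres that can be passaged for a long time, keep ductal keratins, and carry part of the hepatocyte programme at a low level, because ductal cells and hepatocytes descend from a common hepatoblast. Such cultures divide quickly, and Wnt, Notch and inflammatory signals are known to set the balance between division and maturation in the biliary epithelium.

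Kept libraries held 1214403 to 11175868 counts in Set 1 and 1059002 to 7383116 in Sets 2 to 4 (exact two-sided permutation test of log2 totals, P-value 0.218), and 14533–18886 against 13983–18480 genes were detected. Mitochondrial transcripts made up 2.45–3.88% of counts in Set 1 and 2.42–5.07% in the other sets. Actb, by which the library input had been adjusted, made up 0.107–0.429% and 0.0949–0.497%. The deepest library was that of Set 1 organoid 1. Levels are given as CPM, the counts scaled by library size and TMM factor, which are comparable for 1 gene between organoids but not between genes.

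Of 13276 genes tested, 1276 (9.61%) were higher and 1039 (7.83%) were lower in Set 1 at an adj. P-value below 0.05 (edgeR quasi-likelihood test with Benjamini-Hochberg adjustment, as for all adj. P-values below). The median log2 fold-change, here always Set 1 minus the mean of the earlier organoids, was −0.01 over all genes. A value after ± is a standard error (SE) unless it is named as an SD. In 31 genes (0.234%) the lowest organoid of Set 1 lay above the highest of the 27 others, and in 7 (0.0527%) the highest organoid of Set 1 lay below all of them. These numbers were 19 and 3 in libraries thinned to the smallest total, and 2 and 2 when the 7 left-out libraries were added. Without Set 1 organoid 1 the number of lower genes dropped to 689, and without Set 4 the number of higher genes was 808. With the counts summed per set, so that 1 culture stood against 3, 156 genes were higher and 45 lower.

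Taken set by set in a joint fit of 13927 genes, Set 1 was higher than Set 2 in 1077 genes (7.73%) and lower in 1087 (7.8%). Against Set 3 the numbers were 684 (4.91%) and 804 (5.77%), and against Set 4 they were 1852 (13.3%) and 1150 (8.26%). These comparisons share the organoids of Set 1.

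**Figure D1:**
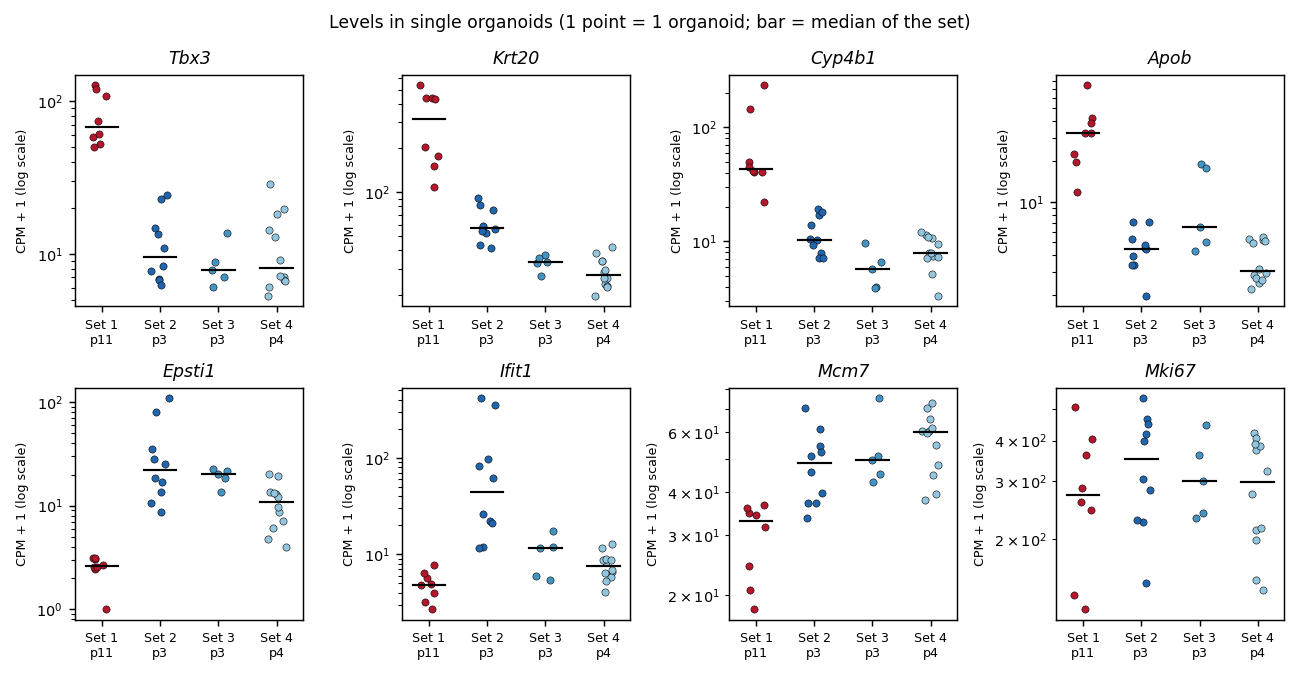
Levels of 8 genes in single organoids, as CPM + 1 on a log axis, with 1 point for each organoid and a bar at the median of its set (8 organoids of Set 1 at passage 11, 10, 5 and 12 of Sets 2, 3 and 4 at passages 3, 3 and 4). Tbx3, Krt20 and Cyp4b1 of Set 1 lie above every earlier organoid, Epsti1 lies below every one, Ifit1 is highest in Set 2, and Mki67 overlaps in all sets.

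The largest increases among genes with an average of at least 4 on the log2 CPM scale were those of Mup-ps19, Cyp4b1, Tbx3, Krt20, Gm14226, Gm35533, Cpm, Gcnt3, Sptssb and Cyp3a13. They combined a transcription factor of the hepatic progenitor, a keratin and a glycosyltransferase of differentiated mucosal epithelium, and 2 cytochrome P450 enzymes.

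Tbx3 (chr5:119670669-119684724), a T-box repressor needed for hepatoblast expansion, ranged from 48.7 to 126 CPM in Set 1 with a median of 66.3, and from 4.31 to 27.5 with a median of 7.3 in the earlier organoids. The groups did not overlap, and the log2 fold-change was 3.02 (SE 0.23, adj. P-value 3.83e-13). The difference was of like size against each set, at 2.94, 3.36 and 2.98 for Sets 2, 3 and 4.

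Krt20 (chr11:99428403-99438150), a keratin of differentiated intestinal and gastric epithelium, ranged over 108–538 CPM (median 316) in Set 1 against 18.6–90.1 (median 34.7), again with no overlap. The log2 fold-change was 2.95 (SE 0.22, adj. P-value 2.65e-13). Cyp4b1, a cytochrome P450 of fatty acid and xenobiotic oxidation, ranged over 21–234 CPM (median 41.9) against 2.33–18.3 (median 6.98). The log2 fold-change was 3.27 (SE 0.27, adj. P-value 1.99e-12). Its highest values, 234 and 143 CPM, came from Set 1 organoids 1 and 6, while the other organoids of Set 1 lay between 21 and 48.2.

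Mup-ps19, annotated as a pseudogene of the major urinary proteins, a family of near-identical genes among which 3′-end reads can be misassigned, rose by 3.51 (SE 0.26, adj. P-value 1.48e-13), from a median of 8.89 to 74.9 CPM. The long intergenic RNA Gm35533 (chr10:100129868-100144126) rose from a median of 136 to 1110 CPM and Gm14226, a predicted gene that overlaps another locus, from 37.7 to 330, both without overlap of the groups. Cpm, a membrane carboxypeptidase, and Sptssb, a subunit of the serine palmitoyltransferase that starts sphingolipid synthesis, had log2 fold-changes of 2.57 (SE 0.25) and 2.43 (SE 0.32), and the lowest level of Set 1 was reached by 1 and 7 earlier organoids.

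Genes of the intestinal and secretory epithelium were higher in Set 1. Of 22 tested, 15 were higher and 2 lower, with a median log2 fold-change of 1.4 beside −0.01 over all genes tested. The count was 15, 16 and 15 against Sets 2, 3 and 4, and 11 were still called with the counts summed per set.

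Averaged over the list, organoids 2 and 3 of Set 1 lay within the earlier range (scores 0.13 and 0.63, against −1.11 to 0.68) and the other 6 of Set 1 at 0.7 to 1.53. Tff3, a trefoil peptide that goblet cells secrete with mucus, ranged over 70.1–893 CPM (median 399) in Set 1 and 45.3–210 (median 76.9) earlier, with a log2 fold-change of 2.24 ± 0.23 (adj. P-value 2.02e-09). The ranges overlapped, as 19 of the 27 earlier organoids reached the lowest level of Set 1. Gcnt3, which makes the branched core of mucin O-glycans, rose by 2.48 (SE 0.22), and 1 earlier organoid reached the lowest level of Set 1. Myo1a, the brush border myosin, was at 3.07–13.5 CPM against 0–2.62, and did not overlap at this low level.

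Enzymes of drug and steroid metabolism moved the same way. Of the phase I list, which holds cytochromes P450, oxidases and esterases, 29 of 82 genes passed the filter, 20 of them were higher and 1 lower, with a median of 0.99. Of 36 tested conjugating enzymes of phase II, 14 were higher and 1 lower (median 0.43), where 9.61% and 7.83% of all genes were. Against Sets 2, 3 and 4, 18, 13 and 22 phase I and 16, 12 and 14 phase II genes were higher, and with counts summed per set 11 and 7. Members that were too low to test in either group are not covered by these counts.

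Cyp3a13, the CYP3A enzyme of the mouse gut and liver, rose from a median of 12.8 to 66.7 CPM (log2 fold-change 2.36, SE 0.2, adj. P-value 1.01e-11). Cyp2d10 rose by 2.14 (SE 0.22) and Cyp2c65 by 3.54 (SE 0.39), the latter at a level of only 0.567–13.7 CPM, and both have close paralogues. Among conjugating enzymes, the sulfotransferase Sult1a1 rose by 1.7 (SE 0.21), the glutathione transferases Mgst3 and Gsta1 by 1.53 (SE 0.2) and 1.45 (SE 0.21), and the glucuronosyltransferase Ugt2b36 by 1.87 (SE 0.28).

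The 3 cytochromes that were fixed for their mention in the study gave less. Cyp2j6 rose by 0.53 (SE 0.18, adj. P-value 0.0308), a call that was lost without Set 1 organoid 1, 4 or 5 and without Set 4 (log2 fold-change 0.31, adj. P-value 0.282). Cyp2b10 and Cyp2c29 did not pass the filter, with 33 and 27 counts in all of Set 1 and 37 and 7 in all earlier organoids.

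Of 10 tested bile acid and drug transporters, 5 were higher and 0 lower, where 9.61% and 7.83% of all genes were. Abcb1a, the multidrug efflux pump, was at 1.42–61.1 CPM (median 6.13) against 0–2.24 (median 0.608), with a log2 fold-change of 4.08 (SE 0.41), and the value of 61.1 CPM belonged to Set 1 organoid 5, without which the log2 fold-change was 3.07. The prostaglandin transporter Slco2a1 rose by 2.69 (SE 0.26) without overlap, and Abcc3, the basolateral bile salt exporter, by 1.2 (SE 0.17). Of 29 tested targets of PPAR-alpha and enzymes of fatty acid oxidation, 15 were higher and 0 lower (median 0.38), among them Acsl1, which activates long-chain fatty acids (1.28, SE 0.19). With counts summed per set, 1 of this list was higher.

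**Figure D2:**
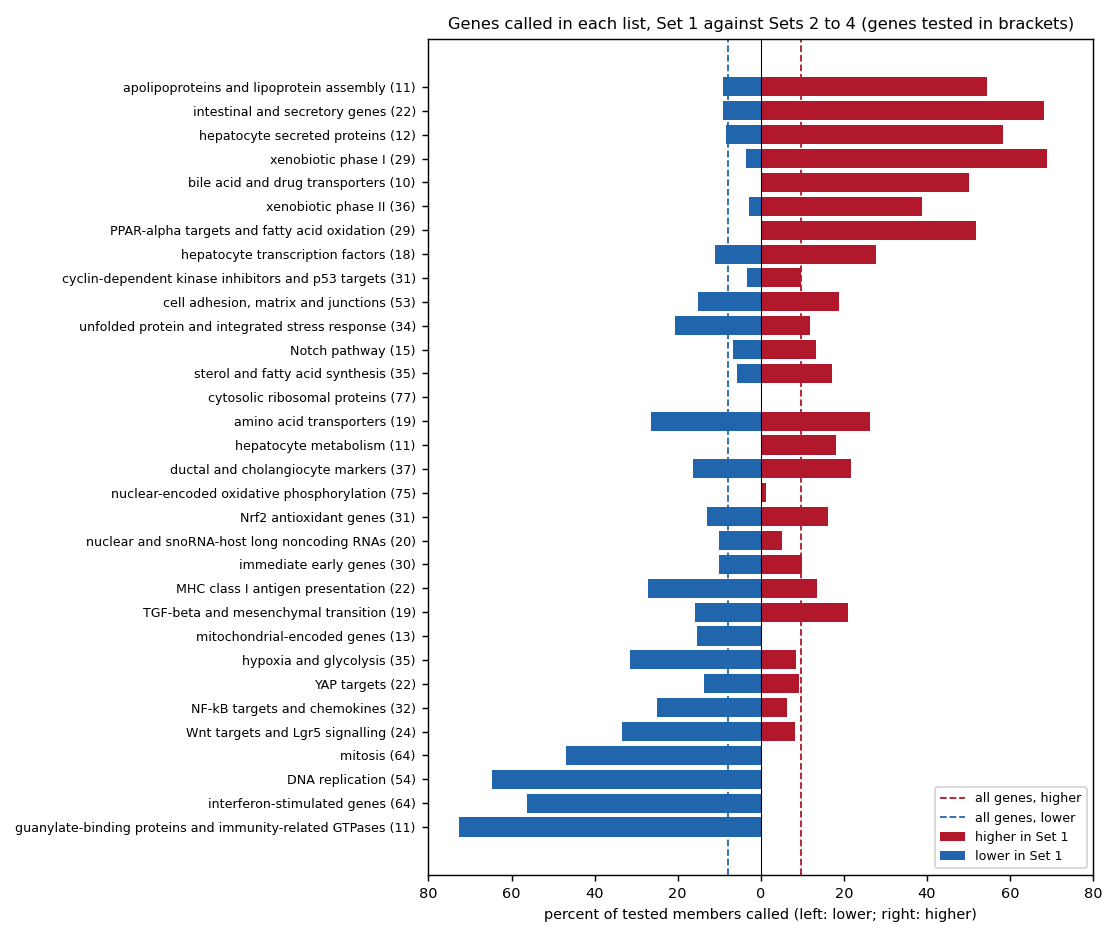
Share of tested members called higher (right) or lower (left) in Set 1 for 32 gene lists, ordered by their median log2 fold-change, with the number of genes tested in brackets and dashed lines at the shares over all genes (9.61% and 7.83%). Intestinal, xenobiotic, apolipoprotein and transporter lists lie far to the right of the dashed line, and interferon, GTPase, replication and mitosis lists far to the left, while 0 of 77 ribosomal proteins were called.

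Part of the genes of secreted hepatocyte proteins were higher in Set 1. Of 34 listed, 12 were tested, 7 were higher and 1 lower, with a median of 1.35. Averaged over the list, only organoids 3 and 6 of Set 1 lay above the earlier range (scores 2.27 and 1.34, against −1.18 to 0.76). The other organoids of Set 1, at 0 to 0.66, lay within it. Median scores were 0.41 in Set 1 and −0.05, 0.34 and −0.66 in Sets 2, 3 and 4, so Set 3 was near Set 1. Of 11 tested apolipoproteins and genes of lipoprotein assembly, 6 were higher and 1 lower (median 1.68). Against Sets 2, 3 and 4, 6, 5 and 7 secreted protein genes and 6, 5 and 6 of the apolipoprotein list were higher. Lower were 1, 2 and 0 secreted protein genes and 1, 0 and 0 of the apolipoprotein list. In pieces of tissue such as whole organoids, a change in the number of cells that express a gene and a change in the amount of RNA per cell cannot be told apart.

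Apob, the structural protein of lipoproteins, was at 10.8–73.3 CPM (median 31.6) in Set 1 and 0.986–18 (median 3.51) earlier, with a log2 fold-change of 3 ± 0.3 (adj. P-value 8.55e-10). Of the earlier organoids, 2 of Set 3 reached the lowest value of Set 1. Fgb, a fibrinogen chain, was at 6.07–143 CPM (median 11.9) against 1.14–9.6 (median 2.95). The value of 143 CPM was that of organoid 3, and the next highest of Set 1 was 19.3. The log2 fold-change of 3.05 became 1.72 without that organoid (adj. P-value 3.9e-06). Itih2 and Hpx, a hyaluronan-binding inhibitor chain and the haem carrier hemopexin, rose by 2.89 (SE 0.37) and 1.93 (SE 0.24).

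Alb, the defining hepatocyte product, depended on the same organoid. It reached 43.8 CPM in organoid 3 and 11.4 in organoid 6, and lay between 1.13 and 3.12 in the other 6, against 0–6.98 CPM (median 1.78) earlier. The log2 fold-change, 1.93 ± 0.45 (SE) with an adj. P-value of 0.00208, became 0.53 (adj. P-value 0.478) without organoid 3, and was 1.42 (adj. P-value 0.0577) without Set 4. Prox1, a transcription factor of the early hepatoblast, had 27.2 CPM in organoid 3 and 0.284–5.56 in the others of Set 1, and its log2 fold-change of 2.5 became 1.35 without organoid 3 (adj. P-value 0.00683). The mature hepatocyte gene Fah, whose enzyme ends tyrosine breakdown, was not called (log2 fold-change −0.28, SE 0.25), nor was the hepatoblast gene Afp (−0.35, SE 0.32). Of 11 tested enzymes of hepatocyte metabolism, 2 were higher, the peroxisomal oxidase Acox2 (1.34, SE 0.19) and glutamine synthetase Glul (1.52, SE 0.25).

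Of 18 tested hepatocyte transcription factors, 5 were higher and 2 lower, where 9.61% and 7.83% of all genes were. Hnf4a, the nuclear receptor at the head of the hepatocyte programme, rose by 0.53 (SE 0.13, adj. P-value 0.00367), from a median of 25 to 38.3 CPM with overlapping ranges. Nr1h3, the oxysterol receptor LXR-alpha, rose by 0.92 (SE 0.21).

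The direct repeat bound by HNF4A (CAAAGTCCA, either strand) was looked for in RefSeq promoters of GRCm38.p6, from 250 bases before to 50 after each start. It was present in 7 of 67 phase I promoters (10.4%), in 2 of the 17 of genes called higher, in 2 of 48 phase II promoters (4.17%) and in 150 of 27025 promoters in the table (0.555%). The 2 called genes were Cyp2c65 and Cyp2c68, related genes of the Cyp2c family on chromosome 19, so their matches are not separate observations. None of the 24, 18, 22, 16 and 20 promoters of the secreted protein, transcription factor, metabolism, apolipoprotein and transporter lists held these letters. The HNF1 site GTTAATNATT was present in 4 of 48 phase II promoters (8.33%), in 1 promoter each of the secreted protein, transcription factor, metabolism and transporter lists, in 0 of the phase I and apolipoprotein lists, and in 0.47% of all promoters. Of the genes called higher, 0 of 17 phase I and 0 of 12 phase II promoters held it. Shown is the stretch before the start of Cyp2c65 (chr19:39060830-39060979, plus strand), the called gene of smallest P-value with the HNF4A letters, which are in capitals. The stretch ends 26 bases before the start.
Cyp2c65: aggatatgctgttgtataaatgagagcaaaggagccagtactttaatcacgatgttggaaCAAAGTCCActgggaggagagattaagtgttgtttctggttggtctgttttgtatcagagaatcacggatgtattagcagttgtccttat

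Markers of the biliary epithelium were detected in all 35 organoids. Epcam was at 332–586 CPM in Set 1 and 211–1250 earlier, Krt7 at 315–485 and 228–743, and Sox9, the ductal transcription factor, at 47.5–157 and 26.2–217, and none of them was called. Krt19, at 370–1040 against 275–668 CPM, rose by 0.56 (SE 0.16, adj. P-value 0.0134), a call that was lost without Set 1 organoid 1 (0.44, adj. P-value 0.0751), without organoid 6 and without Set 2. Spp1, the secreted matrix protein osteopontin, fell by 0.61 on the log2 scale (SE 0.19, adj. P-value 0.0209), which was lost without Set 1 organoid 1 or 5 and without Set 2 or Set 3 (adj. P-values 0.0585 and 0.0536).

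Of 37 tested ductal markers, 8 were higher (5 without Set 1 organoid 1 or 6 or Set 2) and 6 lower (median −0.13). Beside them, 9.61% and 7.83% of all genes were higher and lower. The keratin Krt23 rose without overlap (213–437 against 57.2–175 CPM), and the annexin Anxa13 rose by 1.79 (SE 0.2). The membrane mucin Muc1 was lower, at 49.1–151 CPM (median 72.9) against 139–476 (median 234), with a log2 fold-change of −1.55 ± 0.22 (adj. P-value 1.17e-06).

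Genes induced by interferon had the lowest medians of all lists. Such genes encode antiviral effectors and many carry an interferon-stimulated response element (ISRE) in their promoters. Of 64 tested, 36 were lower and 0 higher, with a median log2 fold-change of −1.26. Of 11 tested guanylate-binding proteins and immunity-related GTPases, which attack intracellular pathogens, 8 were lower and 0 higher (median −2.58).

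The calls were most numerous against Set 2. There, 56 of the interferon-stimulated genes were lower in Set 1 with a median of −1.84, and 11 of the GTPases were lower. There were 23 and 2 lower genes against Set 3 (medians −0.73 and −1.35). Against Set 4, 5 interferon-stimulated genes were lower and 2 higher (median −0.15), and 0 GTPases were called. The difference between the sets was not tested. Without Set 2 the pooled comparison called 18 lower and 2 higher, and with counts summed per set 1 was called, Epsti1. The GTPases called lower numbered 3 without Set 2 and 5 without Set 1 organoid 1. The limma-voom test gave 23 lower interferon-stimulated genes.

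Ifit1 (chr19:34640871-34650009), which binds foreign RNA, had the largest decrease among genes with an average of at least 4 on the log2 CPM scale, with a log2 fold-change of −3.64 ± 0.96 (adj. P-value 0.00623). It was at 1.7–6.81 CPM (median 3.84) in Set 1, at 10.7–413 (median 43) in Set 2, at 4.46–16.3 (median 10.5) in Set 3 and at 3.11–11.9 (median 6.56) in Set 4. Set 2 organoids 4 and 7 had 413 and 349 CPM, and these 2 were also the highest for Rsad2 (461 and 234 CPM) and Epsti1 (108 and 80.1 CPM). Without Set 2 the log2 fold-change of Ifit1 was −1.06 (adj. P-value 0.00625).

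Rsad2 (viperin), Ifi44, Ifi211 and Ifit3 fell by 3.13, 3.25, 3.1 and 2.9 on the log2 scale, and all 4 calls were lost when Set 2 was left out, with adj. P-values of 0.167, 0.0599, 0.129 and 0.18. Xaf1 and Cmpk2 fell by 2.9 and 2.74 and were still called without Set 2. Epsti1 was the only gene of the list whose groups did not overlap. It lay at 0–2.15 CPM (median 1.62) in Set 1 and at 2.95–108 (median 12.6) in the others, and it was lower than in Sets 2, 3 and 4 by 4.32, 3.42 and 2.58 (adj. P-values 6.82e-09, 5.44e-06 and 9.49e-05). The interferon regulatory factor Irf9 and the 2′-5′ oligoadenylate synthetase Oas1a were also lower than in each set, by 1.83, 1.31 and 0.72 and by 2.24, 1.50 and 0.96.

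The ISRE letters (GAAANNGAAA, either strand, overlapping matches counted) were found in 24 of 54 promoters of the list (44.4%) and in 1079 of 27025 promoters in the table (3.99%). They were in 10 of the 26 promoters of genes called lower (38.5%) and in 11 of the 22 of tested genes that were not called. The promoters of Oas1a (chr5:120907526-120907675, minus strand), the called gene of smallest P-value with a match, and of Ifit1 (chr19:34640739-34640888, plus strand), shown for that decrease, run up to the base before the RefSeq start. Each holds 2 matches in capitals, which overlap in Oas1a and lie on the opposite strand in Ifit1.
Oas1a: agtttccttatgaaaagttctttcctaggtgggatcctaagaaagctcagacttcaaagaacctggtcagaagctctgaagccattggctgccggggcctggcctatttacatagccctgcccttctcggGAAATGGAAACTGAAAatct
Ifit1: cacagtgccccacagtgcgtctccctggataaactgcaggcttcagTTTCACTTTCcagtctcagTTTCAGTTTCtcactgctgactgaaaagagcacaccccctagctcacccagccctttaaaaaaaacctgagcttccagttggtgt

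Antigen presentation and chemokine genes were mixed. Of 22 tested genes of MHC class I presentation, 6 were lower and 3 higher, where 7.83% and 9.61% of all genes were. The immunoproteasome subunit Psmb8 fell by 1.40 (SE 0.26, adj. P-value 0.000104) and the peptide transporter Tap1 by 1.14 (SE 0.27), while the chaperone calreticulin (Calr) rose by 0.79 (SE 0.15). Of 32 tested targets of NF-kB and chemokines, 8 were lower and 2 higher, beside the same shares over all genes. The higher genes were lymphotoxin beta (Ltb), at 15.6–129 CPM against 3.11–30.6, and the chemokine Ccl20 (0.94, SE 0.24), and the lower ones included the cytokine Il34 (−1.49, SE 0.26). The number of lower genes of this list was 5 without Set 2 and without any of Set 1 organoids 1, 2 and 4.

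**Figure D3:**
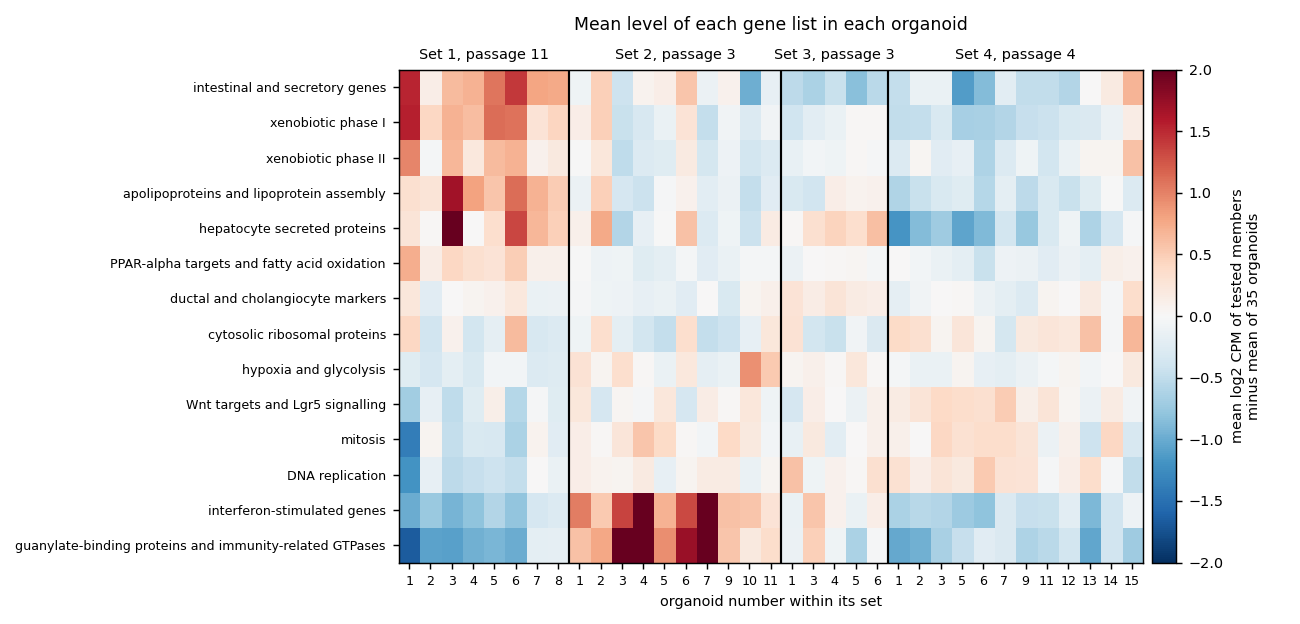
Mean log2 CPM of the tested members of 14 gene lists in each of the 35 organoids, after subtracting the mean of all organoids gene by gene, with the colour scale ending at −2 and 2. Set 2 stands out in the rows of interferon and GTPase genes, with scores up to 2.64 and 4.32, past the end of the colour scale. Set 1 stands out in the metabolic and intestinal rows, and Set 1 organoid 1 has the lowest scores for replication and mitosis (−1.20 and −1.38).

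Genes of the cell cycle were lower in Set 1 by a smaller amount. Of 54 tested genes of DNA replication, 35 were lower and 0 higher (median −0.6), and of 64 tested genes of mitosis 30 were lower and 0 higher (median −0.5). Without Set 1 organoid 1 the counts were 23 and 18, and with the counts summed per set they were 0 and 0. Against Sets 2, 3 and 4 taken singly, 21, 22 and 33 replication genes and 33, 6 and 28 mitosis genes were lower.

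Mcm7 (chr5:138164583-138172422), a subunit of the replicative helicase, was at 17.2–35.6 CPM (median 32) in Set 1 and 32.7–74.3 (median 50.2) earlier. Of the 27 earlier organoids, 1 fell into the range of Set 1, and the log2 fold-change was −0.88 (SE 0.15, adj. P-value 6.35e-05). Chaf1b, which deposits histones behind the fork, fell by 1.02 (SE 0.17), the initiation factors Mcm10 and Cdc45 by 0.91 (SE 0.17) and 0.92 (SE 0.2), and the polymerase subunit Pold1 by 0.87 (SE 0.17). Among genes of mitosis, the transcription factor Foxm1 was at 2.98–8.57 CPM against 6.08–15.2 (log2 fold-change −0.95, SE 0.17, adj. P-value 0.000109). The kinetochore and checkpoint genes Spc24, Mad2l1 and Ttk fell by 0.75, 0.76 and 0.84.

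The proliferation marker Mki67 was not called. Its level was 121–505 CPM (median 273) in Set 1 and 139–538 (median 304) earlier, with a log2 fold-change of −0.12 ± 0.22 (adj. P-value 0.75). Cdk1, the mitotic kinase, fell by 0.60 (SE 0.17, adj. P-value 0.0134), which was lost without Set 1 organoid 1 (adj. P-value 0.0543) and without Set 4 (0.09). Cdk4, the kinase of early G1, fell by 0.57 (SE 0.18, adj. P-value 0.0185), which was lost without Set 1 organoid 4 and without Set 4 (0.171). Of 31 tested inhibitors of cyclin-dependent kinases and p53 targets, 3 were higher and 1 lower, where 9.61% and 7.83% of all genes were. The number higher was thus near the share over all genes. The higher genes were Btg2 (0.82, SE 0.21), Cdkn1a (0.66, SE 0.19) and Mdm2 (0.49, SE 0.17), and the lower one was lamin B1 (Lmnb1, −0.69, SE 0.18). The calls of Cdkn1a and Mdm2 were lost without Set 1 organoid 4, and that of Mdm2 also without organoid 2, 5 or 8 or Set 4.

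The E2F letters TTTGGCGC (either strand) were found in 7 of 43 replication promoters (16.3%), in 5 of 26 of the genes called lower and in 2 of 16 of those not called. They were in 158 of 27025 promoters in the table (0.585%) and in 106 of 9160 of the genes tested (1.16%). The CHR letters TTTGAA, an element of promoters that are active in G2 and mitosis, were found in 39 of 54 mitosis promoters (72.2%), against 20.2% in the table and 14.4% of the genes tested. They were in 18 of 25 of the genes called lower and in 21 of 29 of those not called. Promoter stretches of Mcm6 (chr1:128359706-128359855, minus strand), the called replication gene of smallest P-value with a match, and of Cdca5 (chr19:6084947-6085096, plus strand) each show 2 matches in capitals. Ttk ranked before Cdca5, but its match lay after the start.
Mcm6: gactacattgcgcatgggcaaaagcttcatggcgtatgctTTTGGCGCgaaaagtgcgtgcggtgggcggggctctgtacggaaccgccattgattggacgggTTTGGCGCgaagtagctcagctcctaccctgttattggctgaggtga
Cdca5: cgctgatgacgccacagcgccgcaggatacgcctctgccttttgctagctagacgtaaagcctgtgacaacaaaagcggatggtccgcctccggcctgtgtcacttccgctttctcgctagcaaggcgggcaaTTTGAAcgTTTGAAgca

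Genes outside these programmes were among the clearest decreases. 1700025G04Rik (chr1:151852403-152090125), a gene without an assigned name, was at 2.98–7.94 CPM (median 5.42) against 11.3–75.7 (median 28.9), with no overlap (log2 fold-change −2.74, SE 0.33, adj. P-value 6.2e-08). The microtubule-associated protein gene Map1b fell by 2.73 (SE 0.58, adj. P-value 0.000782). It stood at 11.2–98.9 CPM in Set 2 and 20.8–91.3 in Set 3 but at 2.98–13.4 in Set 4, which overlapped the 2.38–10.6 of Set 1 (log2 fold-change against Set 4 −0.94, adj. P-value 0.1). Slc7a11, the cystine importer, had means of 10.9, 52.9, 83.1 and 13.8 CPM in Sets 1 to 4, and its difference from Set 4 was not called (log2 fold-change −0.4, adj. P-value 0.469). The glutamine transporter Slc38a1 was lower than in all 3 sets, by 2.92, 2.74 and 1.85.

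Of 24 tested Wnt targets and genes of Lgr5 signalling, 8 were lower and 2 higher (median −0.47), where 7.83% and 9.61% of all genes were. Lgr5, the R-spondin receptor that marks Wnt-responsive progenitors, was at 0.219–1.56 CPM (median 0.641) against 0.594–16.9 (median 2.33), with a log2 fold-change of −2.52 ± 0.53 (adj. P-value 0.000618). At these levels a library holds only a few counts of Lgr5, and the call was lost when every library was thinned to the smallest one (adj. P-value 0.0778). The ephrin receptor Ephb2 and the transcription factor Tcf7 fell by 1.68 (SE 0.24) and 1.31 (SE 0.24), and the ligand Wnt4 rose by 1.63 (SE 0.28).

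Counts of the Notch, YAP and immediate early gene lists were near those shares. Of 15 tested Notch genes, 2 were higher and 1 lower. The receptor Notch1 was at 0.779–6.05 CPM against 0–1.56 (log2 fold-change 2.16, SE 0.34) and the ligand Dll1 fell by 1.67 (SE 0.4), while the main biliary receptor Notch2 was not called (−0.35, SE 0.23). Among 19 tested TGF-beta and BMP genes, 4 were higher and 3 lower. The ligand Bmp2 (7.54–31.3 against 0.557–7.18 CPM) and the BMP target Id2 (1330–2090 against 204–1240 CPM) rose without overlap, Bmp4 rose by 0.99 (SE 0.21), and the ligand Tgfb3 fell by 2.17 (SE 0.3, adj. P-value 1.02e-06).

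Of 22 tested YAP targets, 2 were higher and 3 lower, and of 30 tested immediate early genes 3 were higher and 3 lower, Dusp6 rising by 1.09 (SE 0.2) and Etv4 falling by 1.33 (SE 0.24). Of 35 tested genes of hypoxia and glycolysis, 11 were lower and 3 higher, with the glycolytic enzyme Eno1 at 87.5–155 against 128–416 CPM (−0.82, SE 0.17). Of 31 tested Nrf2 targets, 5 were higher, among them Gclc, the rate-limiting enzyme of glutathione synthesis (1.42, SE 0.22), and 4 were lower, among them the peroxidase Gpx2 (−0.95, SE 0.19). The stress response list had 4 higher and 7 lower of 34, the sterol and fatty acid synthesis list 6 and 2 of 35, the adhesion and junction list 10 and 8 of 53, and the amino acid transporter list 5 and 5 of 19. All counts of this paragraph stand beside 9.61% higher and 7.83% lower over all genes, and several are near these shares. The sterol list had 2 or 3 higher genes without Set 1 organoid 3, 4 or 5, Set 2 or Set 4, and the adhesion list 4 or 5 higher genes without organoid 3 or 4 or Set 4. Below the shares over all genes (9.61% higher and 7.83% lower) were ribosomal proteins, with 0 of 77 called, and nuclear oxidative phosphorylation genes, with 1 of 75 (Ndufa6, higher). Mitochondrial transcripts, with 0 higher and 2 lower of 13 (mt-Nd3 and mt-Nd1), had counts near those shares. So did long noncoding RNAs, with 1 higher and 2 lower of 20.

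Of 15 macrophage markers, 4 were tested and 0 called. Their summed level of 192–416 CPM in Set 1 and 200–570 in the other sets came almost wholly from Cd14. It had 10305 and 25723 counts in all. Next came Cd68 with 50 and 116, Csf1r with 23 and 119 and Aif1 with 40 and 55, while Lyz2 had 0 and 1. Of 13 endothelial markers, 3 were tested, with a summed level of 12.4–25.2 against 13.1–45.5 CPM. Most of it was Egfl7, with 532 and 1157 counts in all, followed by Flt1 with 17 and 360, Lyve1 with 53 and 36 and Pecam1 with 25 and 63, while Vwf had 0 and 8 and Emcn 0 and 1. Flt1, a receptor of vascular growth factors, was lower in Set 1 (log2 fold-change −2.85, SE 0.81, adj. P-value 0.0114), which was lost without Set 2 (adj. P-value 0.0788). None of 14 mesenchymal markers passed the filter. Reln had the most counts, 29 and 19, while Col1a1 had 1 and 6 and Vim 0 and 3.

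A wider spread of organoids around their own mean at passage 11 was not detected. The root-mean-square distance of an organoid to the mean of its set over all genes tested, on the log2 scale, was 0.622 ± 0.063 (SD, n = 8) in Set 1 and 0.608 ± 0.0884 (n = 27) in Sets 2 to 4, a difference of 0.0137 (exact two-sided permutation test, P-value 0.693). By the same test the difference was 0.0298 in thinned libraries (P-value 0.349) and 0.0326 with all 42 organoids (P-value 0.404). Set 2 had the widest spread, with a mean of 0.659 and organoids 2 and 6 at 0.845 and 0.818, and Set 3 the narrowest with 0.562. Set 4 had a mean of 0.585, so that Set 1 lay above Sets 3 and 4 and below Set 2. Set 1 was not tested against single sets.

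The bulk cultures asked whether a gene also differed between passages 4 and 11 of the same sets. They held 1486347 to 5532630 counts for each set and passage, and of 13738 genes tested 1392 (10.1%) were higher and 1392 (10.1%) lower at passage 11. The sign of every bulk difference rests on the passage in the sample titles and column names, since the study's text and a legend give this comparison in opposite directions. Without Set 3 the numbers were 226 and 335, and without Set 4 they were 680 and 780, so that the shares of shared genes below depend on these cultures. Of the genes higher in Set 1 single organoids, 1207 were also tested in bulk. At passage 11, 116 of these were higher (9.61% of them, and 8.63% of the 1344 bulk increases among shared genes), 127 lower and 964 not called. Of 963 shared genes lower in Set 1, 168 were lower in bulk (17.4% of them and 12.7% of 1326 bulk decreases), 223 higher and 572 not called. The shares with the opposite sign in bulk were 10.5% of the genes higher in Set 1 and 23.2% of those lower. Over all 12397 shared genes, 10.8% were higher and 10.7% lower in bulk, so the increases did not overlap beyond these shares. Set 1 at passage 11 is among the samples of both readouts.

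**Figure D4:**
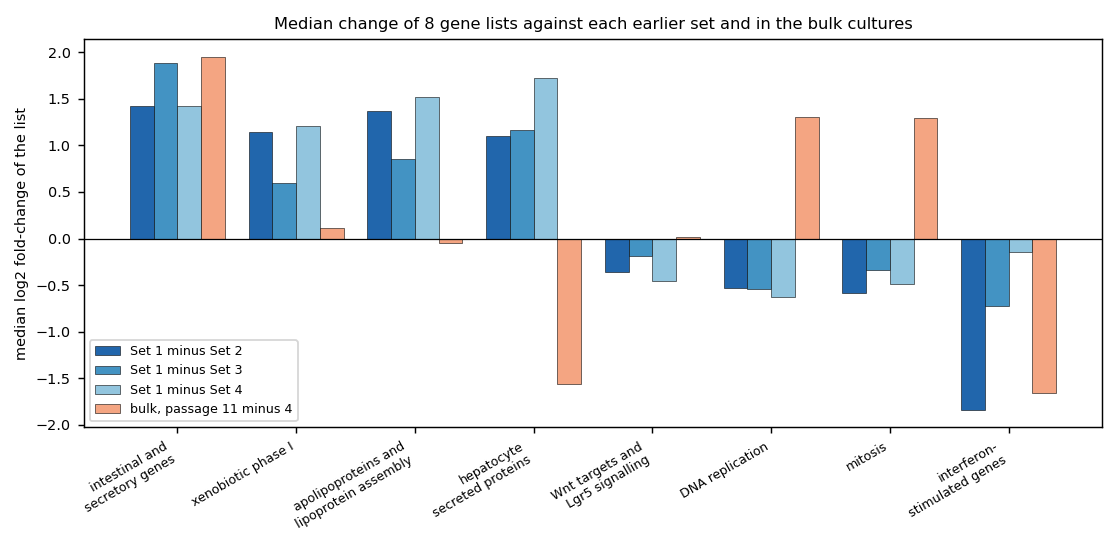
Median log2 fold-change of 8 gene lists, as bars from 0, for Set 1 minus each earlier set in single organoids and for passage 11 minus passage 4 in bulk cultures of Sets 1, 3 and 4. Intestinal genes lie above 0 and interferon-stimulated genes below 0 in all 4 comparisons, whereas replication and mitosis genes lie below 0 in single organoids and above 0 in bulk, and secreted hepatocyte proteins the other way round. The signs in bulk rest on the passages in the sample titles.

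With passages taken from the titles, interferon-stimulated genes went the same way in bulk. Of 67 tested, 47 were lower and 1 higher at passage 11 (median −1.66), and 8 of 13 tested GTPases were lower. Set 2, against which single organoids of Set 1 had the most lower genes of these lists, has no bulk cultures. Against Set 4, single organoids of Set 1 had 5 lower and 2 higher interferon-stimulated genes (median −0.15). Epsti1 was at 11.6, 32 and 49.1 CPM at passage 4 in Sets 1, 3 and 4 and at 3.63, 6.65 and 5.52 CPM at passage 11, so that every set was lower (log2 fold-change −2.57, SE 0.48, adj. P-value 0.0062). Ifit1 was at 203, 232 and 320 CPM at passage 4 and at 227, 19.5 and 10.4 at passage 11, and so of like level in Set 1 at both passages. It was not called (−1.52, SE 0.79, adj. P-value 0.202) unless the set was included as a block (adj. P-value 0.0285). In single organoids, Ifit1 was at 1.7–6.81 CPM in Set 1 at passage 11 and at 3.11–11.9 in Set 4 at passage 4. Both ranges lay far below the bulk levels of the same set and passage, 227 and 320 CPM. Epsti1 was at 2.95–19.4 CPM in single organoids of Set 4, also below its 49.1 in bulk at passage 4. The high passage 4 levels in bulk were therefore not seen in single organoids of Set 4 for Ifit1 and Epsti1. Psmb8, Map1b and Slc7a11 were also lower at passage 11, by 2.81, 2.34 and 3.02 on the log2 scale.

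Intestinal genes were higher at passage 11 in bulk too, with 14 of 27 tested higher and 1 lower (median 1.95). Tff3 was at 33.6, 52.6 and 20.9 CPM at passage 4 and 181, 86 and 44.2 at passage 11 (1.56, SE 0.43, adj. P-value 0.03), and Cyp4b1 rose by 1.6 (SE 0.46, adj. P-value 0.0345). Muc1 was lower at passage 11, at 45.2, 82.4 and 104 CPM against 262, 471 and 580 (−2.51, SE 0.34). Tbx3 was low at both passages, at 3.6, 7.57 and 1.93 CPM at passage 4 and 7.72, 7.05 and 10.4 at passage 11. It was not called (0.89, SE 0.44, adj. P-value 0.177). Krt20 was not called either, with 250 CPM in Set 3 but 30.4 and 9.82 in Sets 1 and 4 at passage 11 (1.17, SE 0.82, adj. P-value 0.343).

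With the same reading of the titles, cell cycle genes went the opposite way. At passage 11 of the bulk cultures, 42 of 54 replication genes and 45 of 63 mitosis genes were higher and 0 lower, with medians of 1.31 and 1.29. Mcm7 was at 11.6, 18.2 and 16.2 CPM at passage 4 and at 32.5, 42.7 and 43 at passage 11 (1.34, SE 0.2, adj. P-value 0.00262), and Cdk1 rose from 64.2, 68.3 and 71.1 to 182, 171 and 176 CPM. Hepatocyte lists were mixed in bulk, with 3 higher and 2 lower of 14 tested genes of metabolism, 3 and 2 of 13 apolipoprotein genes and 0 and 3 of 18 transcription factors. Of 10 tested secreted proteins 0 were higher and 2 lower (with the set as a block, 1 higher and 4 lower), Apob was at 3.08, 4.08 and 1.93 CPM at passage 4 and at 0.682, 1.81 and 0 at passage 11 (−1.49, SE 0.59, adj. P-value 0.101, or 0.0452 with the set as a block), and 8 of 35 phase I enzymes were higher and 1 lower. The glutathione gene Gclc, higher in Set 1 single organoids, was lower in bulk at passage 11 (−1.86, SE 0.24, adj. P-value 0.00122). Bulk and single organoid libraries were made from differently extracted RNA, and the difference between the readouts itself was not tested.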

How the data were processed

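Single mouse cholangiocyte organoids and bulk organoid cultures had been sequenced from the 3′ end of transcripts. The deposited tables hold whole-number counts per gene. Per the study's methods, the authors had demultiplexed and down-sampled the reads with zUMIs, which aligned them with STAR to GRCm38 and counted them with featureCounts, and the submitters' processing notes also name SAMtools 1.9. The sources used here do not state whether a count is a molecule or a read, nor whether strand was used, so overlapping and near-identical genes are uncertain. The single organoid table held 28773 genes, of which 42 had no symbol.

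Samples were grouped by the set in their labels, and the passage of each set was taken from the study's text. The 7 libraries left out by the study were left out here. Genes were kept by edgeR's filterByExpr with a minimum count of 3, scaled by TMM, and tested with the edgeR quasi-likelihood F-test (R 4.3.3, edgeR 4.0.16) with Benjamini-Hochberg adjustment over all genes tested and a threshold of 0.05. Set 1 was compared with the pooled Sets 2 to 4, and in another fit with each set, adjusted over the 3 contrasts together. In bulk, 2 technical replicates were summed, giving 3 cultures for each passage. Distances between organoids used limma-voom values (limma 3.58.1) and an exact permutation test. The scripts were tested on simulated counts. Libraries of 1059002 to 11175868 counts limit what can be seen of genes at a few CPM, and intervals and tests cover the spread between these libraries only.

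Named genes were, for each direction, the 10 called genes of largest log2 fold-change whose log2 CPM averaged at least 4, up to 4 called members of smallest P-value in each of 35 lists, and a fixed set of marker genes and genes named by the study. Organoids, lists and genes, including the promoter of Ifit1, were chosen with earlier results of these data known. Genes of a list that are named to spell out a count of 5 or fewer were also chosen after their values were seen. No set test was run. Some genes covered by these rules are not reported here.

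Labels number the organoids within each set. Over 18 pairs of same-numbered organoids, deviations from the set means correlated between −0.332 and 0.373 (median 0.0202), so the numbers did not pair organoids. Bulk samples of a set come from the same mouse, and their deviations correlated at 0.11, 0.0283 and 0.108 for Sets 1, 3 and 4. Every pair of organoids of a set differed beyond counting error, with a smallest chi-square per degree of freedom of 2.19. Alternatives were RLE scaling, other filters, limma-voom, DESeq2 1.42.0, thinned counts, all 42 organoids, counts summed per set, a block by number, and leaving out each organoid of Set 1 and each set.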

Additional observations from a re-analysis of the deposited data

Results flagged for a closer look

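Within Sets 1, 2 and 3, which hold 8, 10 and 5 organoids, 444 combinations of a set with a named gene or library measure were searched. The search was for a single organoid far from the rest. Genes were taken on the scale of log2(CPM + 1), and total counts, mitochondrial share and distance on their own scale without a log. Of the 444 combinations, 26 (5.86%) had such an organoid, where chance gives about 1 in 20. Set 4, with 12 organoids, was not searched.

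In Set 1, organoid 1 had 11175868 counts against at most 5595426 in the others, and the lowest CPM of the kinetochore gene Spc24 (28.8, next 48.3) and of lamin B1, Lmnb1 (25.5, next 47). Organoid 2 was low for Gcnt3 (112, next 185 CPM) and high for Il34 (4.54, next 2.37 CPM). Organoid 3 was high for the fibrinogen chain Fgb (143, next 19.3 CPM) and low for the cystine importer Slc7a11 (3.07, next 8.44 CPM). Organoid 6 was high for Cdk4 (233, next 145 CPM). Organoid 8 had 0 CPM of Epsti1 (next 1.42) and 0 CPM of the cytokine gene Il23a (next 0.646), and was high for the guanylate-binding protein gene Gbp7 (3.78, next 1.71 CPM).

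In Set 2, organoid 2 was high for Fgb (9.6 CPM), Ltb (30.6 CPM) and Osgin1 (42.8 CPM), organoid 9 was low for Cpm (1.22 CPM) and organoid 10 low for occludin, Ocln (12.2 CPM).

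In Set 3, organoid 3 was high for the interferon-stimulated genes Ifi44 (45.6 CPM) and Xaf1 (32.6 CPM) and low for Krt23 (111 CPM). Organoid 1 was low for Rsad2 (1.78 CPM) and for the amino acid transporter Slc43a2 (16.3 CPM), and organoid 5 low for the GTPase Tgtp2 (2.12 CPM). Organoid 4 was high for Sult1a1 (13.7 CPM) and Gbp7 (6.01 CPM), and organoid 6 for Cyp2c65 (2.1 CPM) and the stress gene Ddit4 (69.4 CPM).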

How the results depend on the processing

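In the pooled comparison, counts thinned to the smallest library gave 745 higher and 568 lower genes, and counts summed per set gave 156 and 45 (17281 genes tested, with 1834 or 10.6% at an unadjusted P-value under 0.05, edgeR quasi-likelihood test). Leaving out 1 organoid of Set 1 at a time gave 937 to 1452 higher and 689 to 1137 lower genes, the smallest number of lower genes without organoid 1. Leaving out Set 4 gave 808 higher genes. A block for the organoid number, which did not pair the samples, gave 955 and 866. Set by set, thinning gave 620 and 642 against Set 2, 385 and 480 against Set 3, and 1143 and 702 against Set 4, and the replicate block gave 1110 and 746 against Set 4. In bulk, technical replicate 1 alone gave 867 and 850, leaving out a set at a time gave 226 to 1198 higher and 335 to 1000 lower, both lowest without Set 3, and the set as a replicate block gave 1435 and 1515. The distance difference ranged from −0.00621 to 0.0282 when an organoid of Set 1 was left out, and was 0.0298 after thinning and 0.0326 with all 42 organoids. The cause of these shifts was not tested, except that by construction thinning leaves fewer counts and summing leaves fewer samples.

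Of the 145 named genes, none changed direction past the threshold in any alternative. RLE scaling changed 0 calls, DESeq2 ended 1, limma-voom 9, thinning 11 of 141, the organoid number block 10, all 42 organoids 9, leaving out Set 2 11 of 144, leaving out Set 4 11, and summing per set 92. Leaving out Set 2 organoids 2 and 6, an alternative chosen after seeing the data, ended 0. Genes without overlap numbered 19 above and 3 below after thinning, 2 and 2 with all 42 organoids, and 46 and 36 without Set 4. Of the summed calls, 77.6% were higher against 55.1% in the pooled fit. Members of lists that failed the count filter were not tested, so differences there were not detectable at this depth.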

Other observations

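Actb made up the smallest shares of counts, 0.0949% to 0.107%, in Set 1 organoid 1, Set 2 organoids 2 and 6 and Set 4 organoid 15. These were also the organoids with the highest or next highest summary of intestinal and secretory genes of their set, at 1.53, 0.48, 0.55 and 0.68 in centred log2 CPM, and their ribosomal protein scores were 0.41, 0.34, 0.34 and 0.66. Mitosis scores were −1.38 and −0.32 in Set 1 organoid 1 and Set 4 organoid 15, and 0.02 in both Set 2 organoids. The organoids were picked out after these values were seen.

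Scores of secreted hepatocyte proteins were 2.27 in Set 1 organoid 3 and 1.34 in organoid 6, against 0 to 0.66 in the other organoids of Set 1 and −1.18 to 0.76 in the earlier sets. Set 3, with 0.03 to 0.6, lay above Set 4, with −1.18 to −0.02, and both are early passages.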
